A study of Mus musculus with 24 samples.

Results

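The 36 genes described here encode heat shock proteins, their co-chaperones and the transcription factors Hsf1 and Hsf2. They were chosen by name, as the rows of the deposited count table whose symbol is on a list of heat shock and chaperone genes. All 36 were found among the 35304 genes of the table. None fell under a mean of 0.5 CPM (counts of a gene scaled to the library total), and all 36 were among the 17275 genes that were tested. The name of the group, cytosolic chaperones, covers most of them: Hspa9, Hspd1 and Hspe1 encode chaperones of the mitochondrial matrix, Serpinh1 encodes a collagen chaperone of the endoplasmic reticulum, and Hspa13 encodes an HSP70 of the microsomal fraction. The data are RNA sequencing of whole liver. The mice were C57BL/6, aged 8 to 12 weeks, with food given during the night alone. Mice carrying loxP sites in both alleles of Bmal1 and 1 copy of a Cre transgene driven by the albumin promoter, which is active in hepatocytes, are called HepKO (Alb::Cre_+/0 Bmal1_fl/fl). Mice with the same loxP alleles and no Cre are called HepWT (Alb::Cre_0/0 Bmal1_fl/fl), so an effect of Cre itself and an effect of the deletion cannot be told apart. Each genotype had 2 libraries at each of 6 zeitgeber times (ZT, counted in hours from lights on), which gives 12 groups and 24 libraries. Cells of the liver in which Cre was never active keep Bmal1 in both genotypes. The deletion was not tested by cell type. BMAL1, the product of the gene named Arntl in the table, is a core transcription factor of the circadian clock.

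Heat shock proteins keep other proteins folded. HSP70 proteins bind exposed hydrophobic stretches of a client in a cycle driven by ATP. J-domain proteins (DNAJ) bring clients and start ATP hydrolysis, and nucleotide exchange factors (the HSP110 type and BAG proteins) release them. HSP90 takes over clients such as steroid receptors and kinases with the help of co-chaperones. HSF1 is the main activator of these genes when unfolded protein accumulates, and binds repeats of nGAAn called heat shock elements. In liver, transcripts of HSF1 target genes are known to rise during the night, when mice feed and body temperature is high.

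Total counts ran from 23583035 to 30677807 in 19 libraries and from 12997689 to 16910415 in the other 5, all of them second HepKO replicates at ZT6 to ZT22. Arntl itself ranged from 1.27 to 46.0 CPM in HepWT and from 10.3 to 17.7 CPM in HepKO. Its count covers the whole gene, exons outside the deleted part and other cell types included, so its level does not check the deletion, but its 24 h amplitude was 2.27 in HepWT and 0.32 in HepKO (log2 units, adjusted p of the difference = 0.00208). The hepatocyte markers were abundant in every library, with a summed level of 74120 to 102453 CPM in HepWT and 36045 to 54782 CPM in HepKO, a difference carried by Alb (log2 HepKO minus HepWT of -1.36). All 10 Kupffer cell markers were lower in HepKO, as were 5 of 9 endothelial markers. Of 5 tested cholangiocyte markers 2 were higher in HepKO, with a summed level of 26.0 to 58.1 CPM in HepWT and 47.1 to 159 in HepKO. The part of these cell types in the chaperone levels was not tested. In whole liver, fewer cells of a type and less RNA per cell cannot be told apart. At ZT2 the 2 HepWT libraries stood apart from each other for the chaperone genes. Replicate 1 had 67.4 CPM of Hsph1 against 16.7 in replicate 2, and 859 against 390.4 CPM of Hspa8. The HepKO libraries of ZT2 had 48.4 and 69.0 CPM of Hsph1 and 658 and 911 CPM of Hspa8. With 2 libraries, the one that is out of line cannot be told. Genotype and 24 h rhythm calls of single genes that changed without HepWT ZT2 replicate 1 are given with and without it. Those that changed without HepWT ZT2 replicate 2 are named with the genotype differences. The labels do not say whether the 2 libraries of a group come from separate mice, so a p-value here reflects no more than how far these libraries spread, which may be technical.

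Promoters are shown first because some members of the group hold the same sequence element there. RefSeq windows of 250 bases before and 50 bases after a start site (GRCm38.p6) were at hand for 28 of the 36 genes and for 27025 genes in all. The heat shock element (GAANNTTC followed by NNGAA), searched on both strands, was found in 5 of the 28 (17.9%), against 0.662% of all genes with a window: Chordc1, Dnajb6, Hspd1, Hspe1 and Hsph1. The shorter GAANNTTC, which reads the same on both strands and is contained in the longer element, was found in 13 of the 28 (46.4%), against 9.04% of all. Both counts take Hspd1 and Hspe1 as 2 genes for 1 shared stretch, and the second takes Hspa1a and Hspa1b as 2 for identical bases. The 36 genes were chosen by name as heat shock and chaperone genes, so these shares carry no test. Of the 23 genes with a window that were rhythmic in HepWT (below), 11 held the shorter motif, as did 2 of the 5 that were not rhythmic. The E-box CACGTG, the sequence that BMAL1 and CLOCK bind, was found in 3 of the 28 (10.7%), namely Hsf2, Hspd1 and Hsph1, against 8.09% of all. The D-box TTATGTAA was found in 0 of the 28, against 1.11% of all. A match describes the letters of the window and shows no binding.

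Stretches upstream of the RefSeq start sites follow for the genes on which the results turn, 5′ to 3′ on the strand of the gene, with the heat shock element in capitals where there is one and the shorter motif in capitals otherwise. Hspa1a and Hspa1b, the stress-inducible HSP70 pair, had the same 38 bases 119 to 82 bases before the start, at chr17:34972238-34972275 and chr17:34959320-34959357 (both minus strand):
Hspa1a: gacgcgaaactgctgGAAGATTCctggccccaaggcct
Hspa1b: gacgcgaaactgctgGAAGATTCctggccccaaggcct
Dnaja1, with a nocturnal rhythm, and Fkbp4, with the smallest p of the HepWT rhythm, held the shorter motif at chr4:40722329-40722366 (plus strand) and chr6:128438785-128438822 (minus strand). In the GENCODE annotation the first lies in exons of Dnaja1 and Gm6297, and the second in an exon of Gm10069:
Dnaja1: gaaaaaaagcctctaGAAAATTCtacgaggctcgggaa
Fkbp4: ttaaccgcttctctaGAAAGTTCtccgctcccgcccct
Hspd1 and Hspe1, the mitochondrial chaperonin pair, are transcribed away from each other and share 1 stretch with 2 overlapping elements, chr1:55088053-55088082, read from either strand. It lies in an annotated exon of Hspd1:
Hspd1: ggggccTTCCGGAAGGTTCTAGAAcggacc
Hspe1: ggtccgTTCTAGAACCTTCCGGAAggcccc
Dnajb6, the gene whose rhythm differed between the genotypes, held the full element at chr5:29735844-29735872 (plus strand), in annotated exons of Dnajb6 and Gm5129. Dnaja4, the gene with the largest genotype difference, held the shorter motif at 2 places in chr9:54699454-54699529 (plus strand), partly in an annotated exon of Dnaja4:
Dnajb6: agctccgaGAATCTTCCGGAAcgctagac
Dnaja4: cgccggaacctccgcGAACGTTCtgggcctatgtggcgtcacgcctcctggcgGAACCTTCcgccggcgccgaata

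Levels are compared between genes as CPM per kilobase of annotated exon. Hsp90ab1, the constitutive HSP90, and Hspa8, the constitutive HSP70, had the highest mean levels in HepWT, at 223 and 215 CPM per kilobase. The mitochondrial chaperones followed, with Hspd1 (HSP60) at 170.4, Hspa9 (mitochondrial HSP70) at 140.0 and Hspe1 (HSP10) at 71.1. Hsp90aa1, the inducible HSP90, and the small heat shock protein gene Hspb8 stood at 61.5 and 61.0. At the other end, Hspa1a had 0.398, Hspa2 0.743 and Cryab (alpha B-crystallin, abundant in lens and muscle) 1.21 CPM per kilobase. Hspa1a was counted from 4 to 210 reads per library, Hspa2 from 15 to 118 and Cryab from 16 to 62, the lowest counts of the group. Hspa1a and Hspa1b share 47.1% and 49.9% of their 100-base windows with each other, and reads from the shared part cannot be assigned to one of the 2. Sequence is shared with other annotated genes, on either strand, for 63.4% of the windows of Hspa8 and 47.5% of Hsp90aa1. The share is 51% for Dnaja4 (with Wdr61, on the opposite strand), 42.7% for Hspb1 and 36.3% for Dnajb6. The levels of these genes are uncertain for this reason, by an amount that was not tested and that the share does not give.

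In HepWT the chaperone genes peaked at night. A 24 h wave was called in 27 of the 36 genes, against 30.3% of all genes tested, and in each of the 27 the fitted peak lay in the dark phase, ZT12 to ZT24, against 50.8% of all rhythmic genes. In 26 of the 27 it lay between ZT13.7 and ZT19.8, and Serpinh1 stood apart at ZT23.8. By family, the peaks of the cytosolic HSP70 genes lay between ZT14.5 and ZT16.4 and those of HSP90 and its co-chaperones between ZT17.9 and ZT19.6. Those of the 6 rhythmic J-domain genes ran from ZT13.7 to ZT19.8, with Dnajb2 the latest and the other 5 no later than ZT15.9. Differences between families were not tested. The 9 genes without a call in HepWT were Hsf1, Hsf2, Hspa9, Hspa13, Dnaja4, Hspb1, Cryab, Bag1 and Cdc37.

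**Figure D1:**
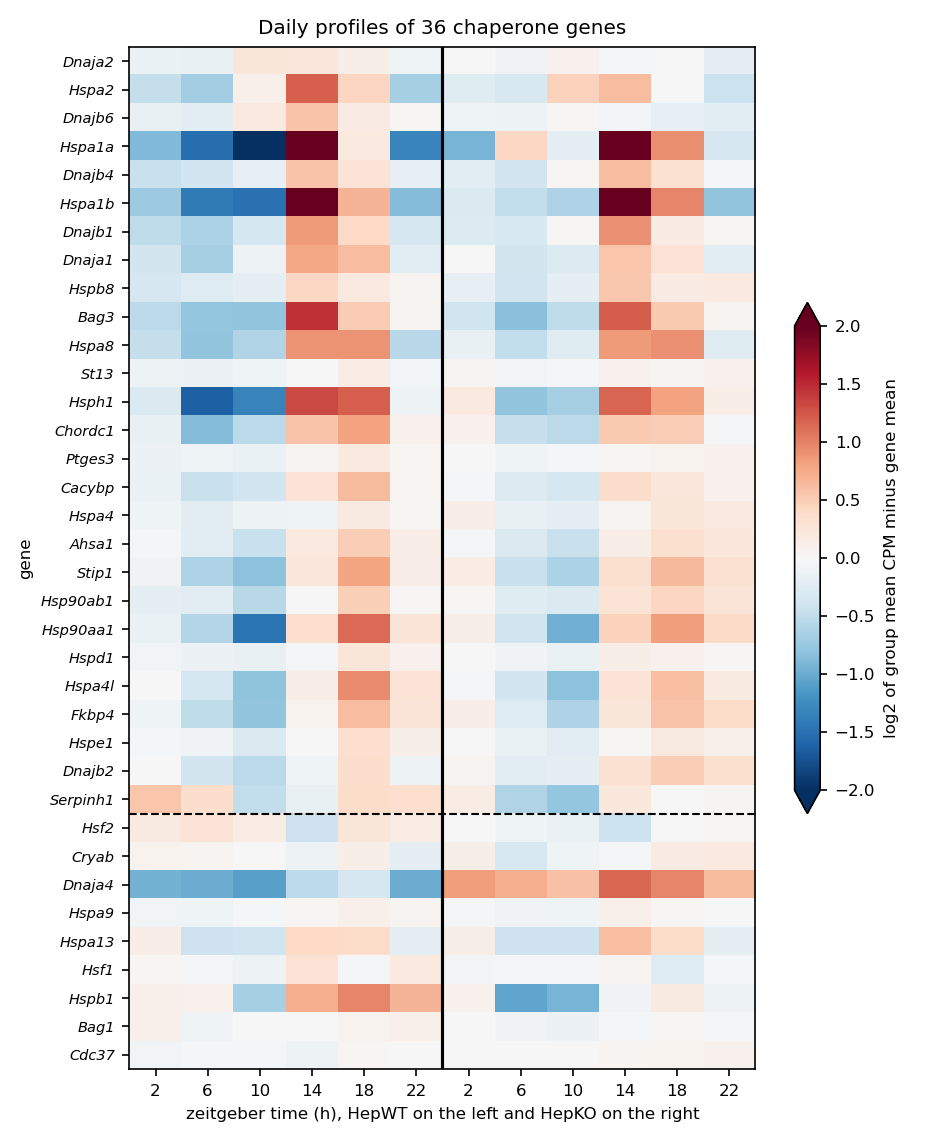
Daily profile of each of the 36 genes (rows) at the 6 zeitgeber times in HepWT (left 6 columns) and HepKO (right 6 columns). Colour gives the log2 of the group mean CPM (2 libraries) minus the mean of the gene over the 12 groups, limited to 2 in either direction; genes above the dashed line were called rhythmic in HepWT and are ordered by fitted peak. The red field sits at ZT14 in most upper rows and moves toward ZT18 further down, in both genotypes. Dnaja2 and Dnajb6 are below their gene mean at ZT14 in HepKO. Dnaja4 is red in all 6 HepKO columns.

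The inducible HSP70 genes had the largest daily swing of the 36. Hspa1a stood in HepWT at 0.456 and 0.567 CPM at ZT2, 0.393 and 0.267 at ZT6, 0.29 and 0.166 at ZT10, 4.99 and 4.13 at ZT14, 1.26 and 0.899 at ZT18, 0.588 and 0.165 at ZT22. The HepKO libraries had 0.468 and 0.524 CPM at ZT2, 0.77 and 1.72 at ZT6, 0.606 and 1.04 at ZT10, 7.88 and 11.7 at ZT14, 1.82 and 1.78 at ZT18, 0.623 and 0.871 at ZT22. In both genotypes the 2 libraries of ZT14 were above all others, and the mean of ZT14 was 19.98 times the lowest mean in HepWT and 19.8 times in HepKO. Hspa1a had a 24 h amplitude of 1.76 ± 0.47 in HepWT with a peak at ZT15.1 (adjusted p = 0.00646) and 1.91 ± 0.42 in HepKO with a peak at ZT14.01 (adjusted p = 0.00498). Amplitude is the fitted distance from the daily mean to the peak in log2 units, given with its SE. Hspa1b, printed in full although it was chosen after its values were seen, stood in HepWT at 9.01 and 5.46 CPM at ZT2, 3.90 and 5.07 at ZT6, 4.39 and 4.13 at ZT10, 69.0 and 57.3 at ZT14, 26.2 and 12.1 at ZT18, 9.06 and 4.13 at ZT22. HepKO values were 5.57 and 13.97 CPM at ZT2, 6.60 and 10.5 at ZT6, 7.88 and 7.71 at ZT10, 80.2 and 70.1 at ZT14, 29.6 and 17.8 at ZT18, 7.79 and 6.10 at ZT22. The ZT14 libraries again lay above all others in both genotypes. For Hspa1b the fitted 24 h amplitude was 1.65 ± 0.38 in HepWT with a peak at ZT15.6 (adjusted p = 0.00314) and 1.44 ± 0.38 in HepKO with a peak at ZT14.8 (adjusted p = 0.0166).

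Hspa8, which also uncoats clathrin and serves chaperone-mediated autophagy, is abundant without stress and still rose at night. It ranged from 390.4 to 1851 CPM, with a median of 638 in HepWT, and from 542 to 1716 CPM, with a median of 789 in HepKO. The 4 libraries of ZT14 and ZT18 were the highest in each genotype. The 24 h amplitude of Hspa8 was 0.89 ± 0.16 in HepWT with a peak at ZT16.4 (adjusted p = 0.000371) and 0.70 ± 0.16 in HepKO with a peak at ZT16.4 (adjusted p = 0.0102). Hspa2, an HSP70 best known from testis, ranged from 0.619 to 4.86 CPM in HepWT, and its amplitude was 0.90 ± 0.19 there (adjusted p = 0.00261) and 0.51 ± 0.20 in HepKO (adjusted p = 0.164). The HSP110 genes Hsph1, Hspa4l and Hspa4, nucleotide exchange factors of HSP70, peaked later, at ZT17.7, ZT19.5 and ZT18.9 in HepWT. Hsph1 ranged from 15.95 to 131 CPM with an amplitude of 1.41 ± 0.24, a 7.07-fold fitted swing from trough to peak. In HepKO the amplitude of Hsph1 was 0.83 ± 0.24 and missed the threshold (adjusted p = 0.0639). It passed without HepWT ZT2 replicate 1 (adjusted p = 0.0128), with DESeq2 (0.0476), with limma-voom (0.0439), with a 12 h wave added (0.00478) and in the test of any difference among the 6 times (0.0139). The test of the difference between the rhythms did not pass (adjusted p = 0.684). Amplitudes of Hspa4l were 0.69 ± 0.11 in HepWT and 0.58 ± 0.11 in HepKO, and those of Hspa4 were 0.15 ± 0.04 and 0.23 ± 0.04, all called.

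Of the 7 J-domain genes, 6 were rhythmic in HepWT and 4 in HepKO. Dnajb1 (HSP40), the J-domain partner of inducible HSP70, ranged from 10.2 to 34.7 CPM in HepWT and 13.52 to 41.0 in HepKO. Dnajb1 had a 24 h amplitude of 0.70 ± 0.11 in HepWT with a peak at ZT15.7 (adjusted p = 0.000201) and 0.52 ± 0.12 in HepKO with a peak at ZT15.1 (adjusted p = 0.0108). Dnajb4, a close relative of Dnajb1, stood in HepWT at 33.8 and 24.5 CPM at ZT2, 29.7 and 31.2 at ZT6, 34.9 and 35.8 at ZT10, 61.4 and 57.0 at ZT14, 51.7 and 44.1 at ZT18, 36.8 and 34.1 at ZT22. Its HepKO levels were 31.9 and 36.8 CPM at ZT2, 27.7 and 33.5 at ZT6, 40.3 and 41.1 at ZT10, 54.5 and 67.1 at ZT14, 52.0 and 46.1 at ZT18, 38.6 and 40.1 at ZT22. Its ZT14 libraries were the highest in both genotypes. For Dnajb4 the fitted 24 h amplitude was 0.49 ± 0.067 in HepWT with a peak at ZT15.5 (adjusted p = 3.36e-05) and 0.44 ± 0.068 in HepKO with a peak at ZT15.6 (adjusted p = 0.000693), so the fitted peaks differed by 0.16 h (95% interval -1.48 to 1.79 h).

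Dnaja1, a farnesylated J-domain protein that recycles clients with HSP70, stood in HepWT at 162 and 89.4 CPM at ZT2, 93.5 and 112 at ZT6, 146 and 156 at ZT10, 263 and 290.0 at ZT14, 268 and 232 at ZT18, 156 and 121 at ZT22. In HepKO it stood at 151 and 169 CPM at ZT2, 115 and 135 at ZT6, 139 and 130.4 at ZT10, 239 and 238 at ZT14, 205 and 192 at ZT18, 129.7 and 147 at ZT22. ZT14 and ZT18 were the high times in both genotypes, and the ZT14 libraries of HepKO lay below those of HepWT. The 24 h amplitude of Dnaja1 was 0.70 ± 0.10 in HepWT with a peak at ZT15.9 (adjusted p = 8.9e-05) and 0.36 ± 0.10 in HepKO with a peak at ZT16.3 (adjusted p = 0.0485). The difference in amplitude was -0.34 (95% interval -0.64 to -0.033), while the test of the rhythm difference over all genes did not pass (adjusted p = 0.466). Its HepKO call was lost in 19 of the 24 fits that left out 1 library. Exons of Smu1 overlap Dnaja1 by 608 bases on the opposite strand, and Smu1 stood at 51.0 CPM in HepWT and 48.0 in HepKO. Dnaja2 stood in HepWT at 107 and 95.3 CPM at ZT2, 97.7 and 102 at ZT6, 134 and 127 at ZT10, 128 and 129.8 at ZT14, 120.3 and 121 at ZT18, 109 and 98.8 at ZT22. The HepKO libraries had 112 and 109.6 CPM at ZT2, 110.3 and 99.6 at ZT6, 118 and 117 at ZT10, 101.3 and 115 at ZT14, 106 and 114 at ZT18, 102 and 94.3 at ZT22. In HepWT the libraries of ZT10 to ZT18 all lay above those of the other 3 times, and in HepKO the times overlapped. Dnaja2 had a 24 h amplitude of 0.22 ± 0.04 in HepWT with a peak at ZT13.7 (adjusted p = 0.000791) and 0.068 ± 0.04 in HepKO with a peak at ZT10.5 (adjusted p = 0.465), and the rhythm difference had an adjusted p of 0.229. Dnajb2, which carries ubiquitin-interacting motifs, was the J-domain gene with the latest HepWT peak and is described with the genotype differences, as are Dnajb6 and Dnaja4.

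Among the genes that act on the HSP70 cycle, Bag3, which links HSP70 to small heat shock proteins and autophagy, had a wide swing. It ranged from 7.48 to 52.2 CPM, with a median of 15.5 in HepWT, and from 8.25 to 42.1 CPM, with a median of 15.8 in HepKO, and the 2 ZT14 libraries were the highest in each. For Bag3 the fitted 24 h amplitude was 1.01 ± 0.19 in HepWT with a peak at ZT16.3 (adjusted p = 0.000689) and 0.89 ± 0.19 in HepKO with a peak at ZT16.5 (adjusted p = 0.0075). Its partner Hspb8, a small heat shock protein, had amplitudes of 0.36 ± 0.086 and 0.39 ± 0.087 with peaks at ZT16.3 and ZT17.1, both called. St13 (HIP), which holds HSP70 in the ADP state, swung by 1.17-fold in HepWT (adjusted p = 0.0342), a call that was lost in 15 of the 24 fits without 1 library. Bag1, an exchange factor of HSP70, had amplitudes of 0.08 and 0.054 and no call.

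HSP90 and its co-chaperones reached their highest means at ZT18 and their lowest at ZT10, which was so in HepWT for 6 of these genes: Hsp90aa1, Hsp90ab1, Stip1, Fkbp4, Ahsa1 and Ptges3. Hsp90aa1 ranged from 78.4 to 492 CPM, with a median of 242 in HepWT, and from 105 to 394 CPM, with a median of 267 in HepKO. The 24 h amplitude of Hsp90aa1 was 0.98 ± 0.15 in HepWT with a peak at ZT19.3 (adjusted p = 0.00019) and 0.73 ± 0.15 in HepKO with a peak at ZT19.4 (adjusted p = 0.00976). Its constitutive relative Hsp90ab1 had amplitudes of 0.37 ± 0.071 and 0.36 ± 0.071 with peaks at ZT19.2 and ZT18.9. Stip1 (HOP), the adaptor that joins HSP70 to HSP90, stood in HepWT at 85.1 and 59.7 CPM at ZT2, 49.8 and 48.9 at ZT6, 42.3 and 43.7 at ZT10, 87.3 and 89.3 at ZT14, 129.8 and 131 at ZT18, 95.7 and 71.2 at ZT22. HepKO values were 74.4 and 93.2 CPM at ZT2, 57.6 and 54.2 at ZT6, 54.7 and 43.5 at ZT10, 99.1 and 91.1 at ZT14, 120.2 and 117 at ZT18, 92.0 and 95.4 at ZT22. The ZT18 libraries were the highest in both genotypes and those of ZT10 were among the lowest. Stip1 had a 24 h amplitude of 0.71 ± 0.093 in HepWT with a peak at ZT19.1 (adjusted p = 2.91e-05) and 0.59 ± 0.094 in HepKO with a peak at ZT19.4 (adjusted p = 0.00126).

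Fkbp4 (FKBP52), an immunophilin of steroid receptor complexes, had the smallest p of the HepWT rhythm among the 36. It stood in HepWT at 149.95 and 124 CPM at ZT2, 108 and 97.2 at ZT6, 90.7 and 77.9 at ZT10, 159 and 149 at ZT14, 230.1 and 217 at ZT18, 203 and 145 at ZT22. Its HepKO levels were 145 and 175 CPM at ZT2, 118 and 125 at ZT6, 94.8 and 94.9 at ZT10, 179 and 166 at ZT14, 224 and 209 at ZT18, 182 and 195 at ZT22. The daily course had its low point at ZT10 and its high point at ZT18 in both. For Fkbp4 the fitted 24 h amplitude was 0.63 ± 0.077 in HepWT with a peak at ZT19.6 (adjusted p = 1.14e-05) and 0.52 ± 0.077 in HepKO with a peak at ZT19.9 (adjusted p = 0.000639). Ahsa1 (AHA1), which speeds the ATPase of HSP90, stood in HepWT at 64.5 and 51.8 CPM at ZT2, 54.0 and 48.2 at ZT6, 43.1 and 45.0 at ZT10, 66.1 and 71.9 at ZT14, 83.1 and 86.2 at ZT18, 69.6 and 62.0 at ZT22. In HepKO it stood at 54.7 and 62.0 CPM at ZT2, 48.9 and 49.3 at ZT6, 45.1 and 43.3 at ZT10, 69.0 and 62.7 at ZT14, 77.3 and 72.7 at ZT18, 68.3 and 70.9 at ZT22. The genotypes overlapped at 5 of the 6 times, and at ZT18 both HepKO libraries lay below both HepWT libraries. The 24 h amplitude of Ahsa1 was 0.39 ± 0.057 in HepWT with a peak at ZT18.9 (adjusted p = 8.29e-05) and 0.37 ± 0.058 in HepKO with a peak at ZT19.4 (adjusted p = 0.00095).

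Chordc1 (morgana), an HSP90 partner with a CHORD domain, stood in HepWT at 63.2 and 33.0 CPM at ZT2, 28.7 and 30.2 at ZT6, 34.0 and 40.0 at ZT10, 71.6 and 87.8 at ZT14, 94.6 and 91.4 at ZT18, 60.8 and 53.0 at ZT22. The HepKO libraries had 52.6 and 61.0 CPM at ZT2, 35.5 and 42.0 at ZT6, 37.7 and 36.1 at ZT10, 78.0 and 75.4 at ZT14, 78.8 and 71.7 at ZT18, 52.2 and 53.0 at ZT22. The libraries of ZT18 were the highest in HepWT, and those of ZT14 and ZT18 were about level in HepKO. Chordc1 had a 24 h amplitude of 0.78 ± 0.11 in HepWT with a peak at ZT17.9 (adjusted p = 8.78e-05) and 0.48 ± 0.11 in HepKO with a peak at ZT18.2 (adjusted p = 0.0204), and the difference in amplitude was -0.30 (95% interval -0.63 to 0.031). Cacybp, which shares a CS domain with HSP90 partners, had amplitudes of 0.50 ± 0.074 and 0.30 ± 0.075, both called. Ptges3 (p23), which stabilises closed HSP90, was called in HepWT (0.15 ± 0.036, adjusted p = 0.00871) and not in HepKO (0.085 ± 0.036, adjusted p = 0.249). Cdc37, the kinase adaptor of HSP90, had no call: it ranged from 42.3 to 53.4 CPM in HepWT and 46.5 to 53.5 in HepKO, and its 2 amplitudes were 0.034 and 0.057.

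**Figure D2:**
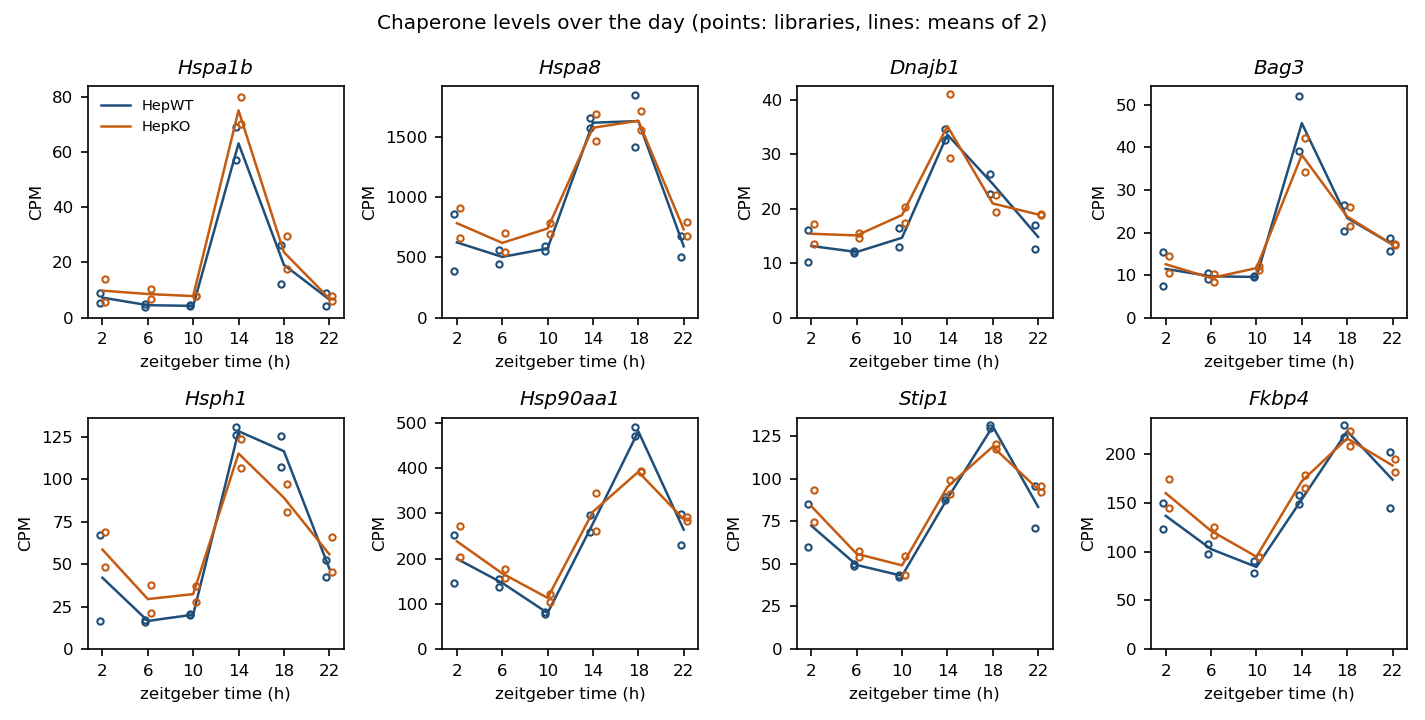
Level in CPM (vertical axis, from 0) by zeitgeber time in hours (horizontal axis) for 8 rhythmic genes, with 1 open circle per library and lines through the means of 2 libraries; blue is HepWT and orange is HepKO. Hspa1b, Dnajb1 and Bag3 are highest at ZT14, Hspa8 is high at ZT14 and ZT18, and Hsp90aa1, Stip1 and Fkbp4 are highest at ZT18 in both genotypes.

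The mitochondrial chaperonin genes swung little. Hspd1 ranged from 359 to 548 CPM in HepWT with an amplitude of 0.18 ± 0.044 and a peak at ZT19.4 (adjusted p = 0.0114), and its co-chaperonin Hspe1 had an amplitude of 0.23 ± 0.053 and a peak at ZT19.8 (adjusted p = 0.00514). In HepKO their amplitudes were 0.10 ± 0.044 and 0.19 ± 0.053, and only the second passed (adjusted p = 0.0485), a call that was lost in 20 of the 24 fits without 1 library, the one without HepWT ZT2 replicate 1 included (0.052). Hspa9 had amplitudes of 0.092 and 0.076 and no call. Hspa13 had its highest mean at ZT14 in both genotypes, with amplitudes of 0.34 ± 0.12 and 0.39 ± 0.12 that missed the threshold (adjusted p = 0.0878 and 0.0744). Without HepWT ZT2 replicate 1 both passed (adjusted p = 0.00606 and 0.0283). The test of any difference among the 6 times did call it in both (adjusted p = 0.00195 in HepWT and 0.0019 in HepKO). The same test called Hsf2 in HepWT (adjusted p = 0.0215), whose 24 h wave was not called (0.19 ± 0.082, adjusted p = 0.202) and whose values are given below. Hsf1 had no call and ranged from 9.21 to 14.6 CPM in HepWT and 8.20 to 11.9 in HepKO. Cryab ranged from 1.11 to 2.00 and 1.04 to 2.35 CPM, without a call.

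A 24 h wave does not describe every daily course in full. In a fit with a 24 h and a 12 h wave, the 12 h part passed in HepWT for 2 of the 36 genes, against 0.284% of all genes: Hspa1b (12 h amplitude of 1.18, adjusted p = 0.0255) and Hsp90aa1 (0.53, adjusted p = 0.0226). In HepKO none of the 36 passed with edgeR, against 0% of all genes. There, 15 of the 36 had an unadjusted p under 0.05, against 7.7% of all, and DESeq2 called 4, against 1.01% of all. In HepWT the count was 9 with DESeq2, against 2.18% of all. The edgeR count in HepWT lay between 0 and 9 when 1 library was left out, with 9 without HepWT ZT2 replicate 2, 4 without HepWT ZT22 replicate 1 and 0 without either ZT10 library or ZT22 replicate 2 of HepWT. It was 1 without HepWT ZT2 replicate 1. With 6 times a day, a 12 h wave rests on 3 points a cycle.

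In HepKO a 24 h wave was called in 19 of the 36 genes, against 14.3% of all genes, and all 19 were among the 27 of HepWT, so both genotypes had a call for 19, against 10.4% of all. Each of the 19 HepKO peaks lay between ZT12 and ZT24, against 52.2% of all genes rhythmic in HepKO. Among the 19, 16 had fitted peaks within 1 h of each other, against 45.3% of all genes rhythmic in both. The fitted differences ran from -1.09 h (Hspa1a) to 1.62 h (Hspa4). Their 95% intervals were wide, from -1.18 to 1.85 h for Fkbp4, the narrowest, to -2.71 to 2.97 h for Hspe1, the widest. Each of the 19 intervals covered 0 and reached beyond 1 h in at least 1 direction, so shifts of that size remain possible. The median size of the difference was 0.33 h, against 1.14 h for all genes rhythmic in both. Amplitude was lower in HepKO for 15 of the 19, against 60.8% of all. The 19 leave out the 8 genes called in HepWT alone (22.2% of the 36, against 19.9% of all genes tested). Over all 36 genes, called or not, amplitude was lower in HepKO for 29, against 59.7% of all genes tested. The median amplitude of the 19 was 0.69 in HepWT and 0.48 in HepKO, against 0.35 and 0.31 for all genes rhythmic in both. The comparison of peak differences with all genes was not adjusted for this gap in amplitude. The median ratio of the amplitudes was 0.832, against 0.922 for all genes rhythmic in both. These counts describe the 36 and carry no test of their own. Without the 5 HepKO libraries of lower depth, which leaves 1 HepKO library at 5 of the 6 times, no member was called in HepKO (0 of 36), against 0.968% of all genes, and the fitted amplitudes of the 19 lay between 0.21 and 1.79. Leaving out 1 library at a time gave 15 to 20 HepKO calls and 24 to 29 HepWT calls.

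**Figure D3:**
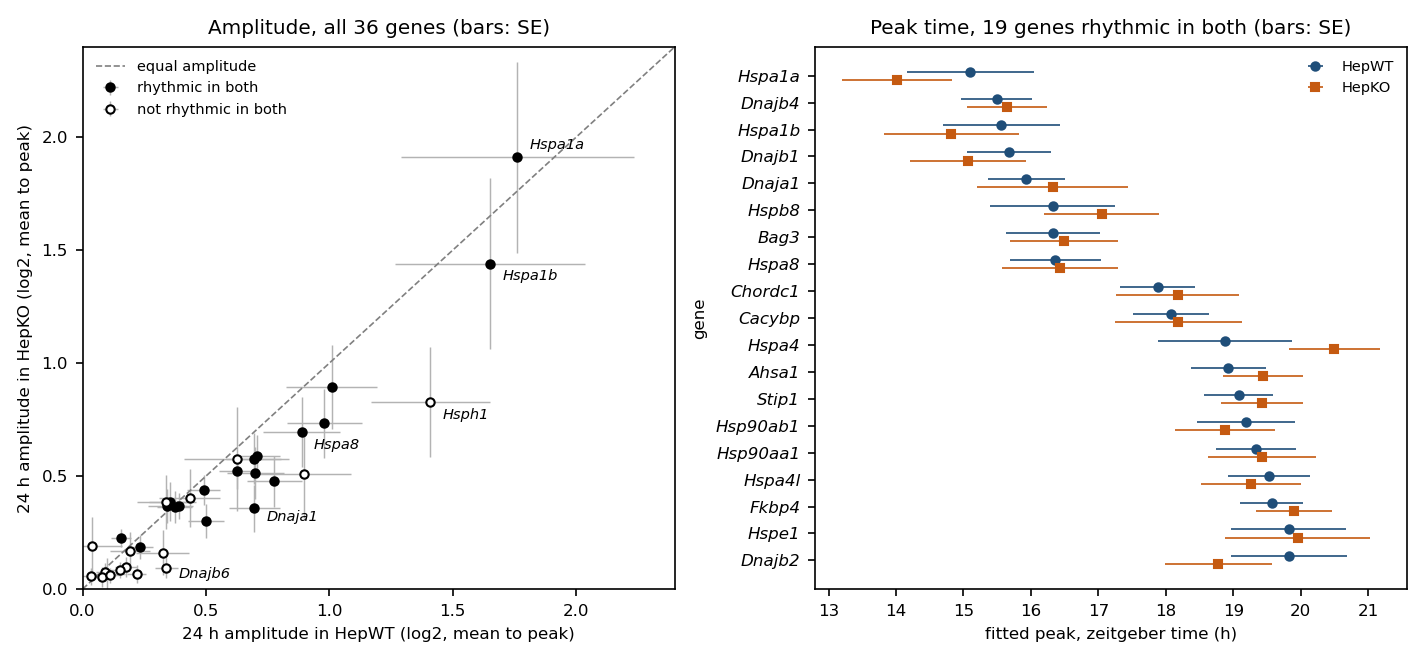
Left: 24 h amplitude in HepWT (horizontal) and HepKO (vertical) in log2 units for all 36 genes, with SE bars and a dashed line of equal amplitude; filled points are the 19 genes called in both genotypes, and most lie under the line. Right: fitted peak in zeitgeber hours with SE bars for these 19 genes, circles for HepWT and squares for HepKO; the 2 symbols of a gene lie within 1 h for 16 of the 19.

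The test of the rhythm difference passed for 1 of the 36 genes, Dnajb6, against 1.5% of all genes tested. DNAJB6 is a J-domain protein that keeps aggregation-prone proteins soluble. Dnajb6 (chr5:29735688-29818134, plus strand, GRCm38) stood in HepWT at 36.9 and 36.3 CPM at ZT2, 36.4 and 33.6 at ZT6, 46.8 and 46.4 at ZT10, 60.7 and 59.7 at ZT14, 49.4 and 41.8 at ZT18, 40.5 and 41.9 at ZT22. HepKO values were 40.7 and 36.3 CPM at ZT2, 39.2 and 36.7 at ZT6, 39.6 and 43.2 at ZT10, 37.7 and 40.6 at ZT14, 34.5 and 38.4 at ZT18, 34.7 and 35.4 at ZT22. The HepWT course rose to a single peak at ZT14, above every HepKO library, and the HepKO course stayed between 34.5 and 43.2 CPM. For Dnajb6 the fitted 24 h amplitude was 0.34 ± 0.045 in HepWT with a peak at ZT14.7 (adjusted p = 2.59e-05) and 0.094 ± 0.046 in HepKO with a peak at ZT9.52 (adjusted p = 0.336). The difference in amplitude was -0.25 (95% interval -0.38 to -0.11, adjusted p of the rhythm difference = 0.0176). Dnajb6 was also the only member with a genotype difference that changed over the day, without a set waveform (adjusted p = 0.0313), against 1.12% of all genes. At ZT14 it was 1.54-fold lower in HepKO (log2 -0.62 ± 0.092, adjusted p = 0.000263). The rhythm difference missed the threshold without HepWT ZT14 replicate 1 (adjusted p = 0.058), HepKO ZT2 replicate 1 (0.059) or HepKO ZT18 replicate 1 (0.0501). For the interaction, the number of members that passed was 0 in 18 of the 24 fits without 1 library, and 3 without HepWT ZT2 replicate 1. An exon of Dnajb6 overlaps the opposite-strand Gm5129 by 249 bases, which was counted at 0.146 CPM in HepWT and 0.0909 CPM in HepKO.

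Averaged over the 6 times, 8 of the 36 genes differed between genotypes, against 26.5% of all genes tested. Dnaja4, Hspa1a, Dnajb2 and Hsp90ab1 were higher in HepKO (4 of 36, against 13.2% of all), and Dnajb6, Hsf2, Serpinh1 and Hspb1 were lower (4 of 36, against 13.3%). At an unadjusted p under 0.05 there were 12 of 36, against 36.5% of all. The median log2 difference was 0.024 for the 36 and -0.01 for all genes. The share of members called was under the share of all genes. The counts moved with single libraries. Of the 2 HepWT libraries of ZT2, leaving out replicate 1 raised the number of calls and leaving out replicate 2 lowered it. Without HepWT ZT2 replicate 2 the genotype calls of Hsp90ab1 (log2 0.14) and Serpinh1 (-0.28) were lost. The HepWT rhythm calls of St13 (amplitude 0.10) and Serpinh1 (0.39) were lost too, as were the HepKO ones of Dnaja1 (0.35) and Hspe1 (0.18). Without HepWT ZT2 replicate 1, the library with the high chaperone levels, 16 members were called, against 25.3% of all genes, and 13 of them were higher in HepKO, against 12.6%. Hspa1b, Hspa4, Hspa8, Hsph1, Hsp90aa1, Dnajb1, Dnajb4, Stip1 and Fkbp4 were gained, all higher in HepKO, and Hspb1 was lost. Hspa8 then had a log2 difference of 0.33 (adjusted p = 0.00602) and Hsph1 of 0.50 (adjusted p = 0.00148). The same omission changed 24 h rhythm calls of Hspa13, Dnaja4, Hsph1 and Hspe1, as given with these genes. Left out alone, HepWT ZT10 replicate 2, HepWT ZT14 replicate 1, HepKO ZT14 replicate 1 or HepKO ZT18 replicate 2 gave 5 calls, and HepWT ZT18 replicate 2, HepKO ZT10 replicate 2 or HepKO ZT22 replicate 2 gave 4. The 4 genes Dnaja4, Hspa1a, Dnajb2 and Dnajb6 were called in each of these 24 fits.

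**Figure D4:**
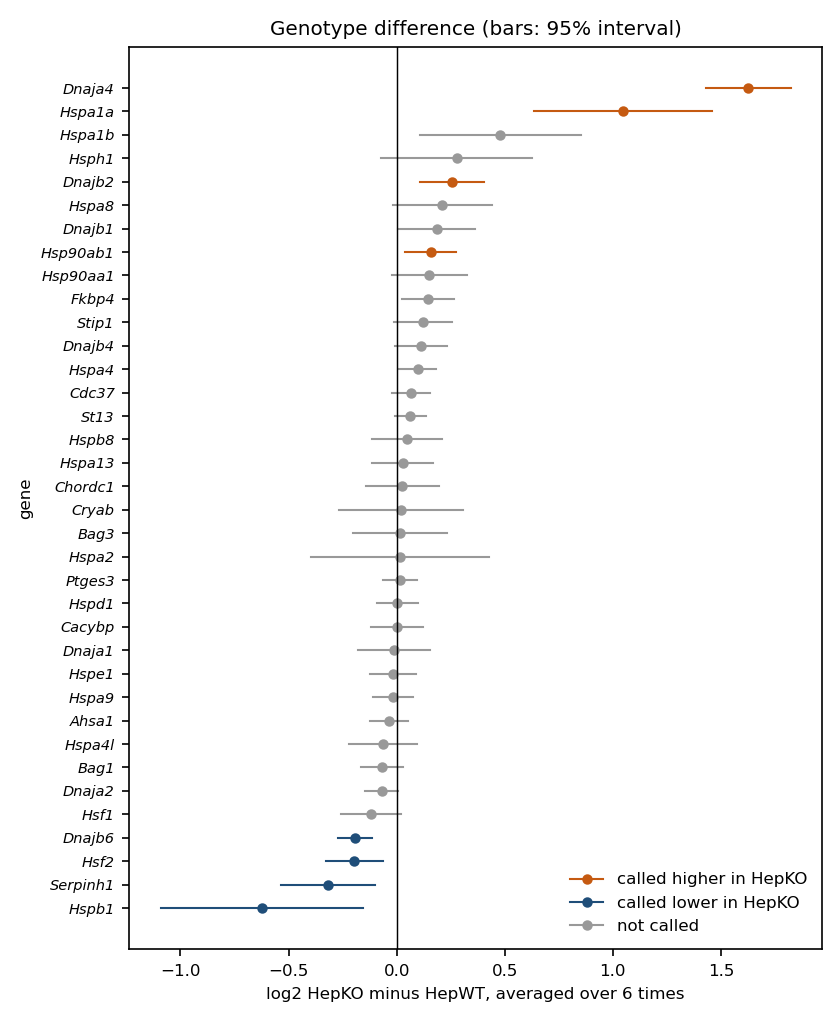
Log2 difference HepKO minus HepWT averaged over the 6 times (horizontal axis) for the 36 genes, ordered by size, with 95% intervals; orange marks the 4 genes called higher in HepKO, blue the 4 called lower and grey the 28 not called. Dnaja4 stands at 1.63, and the grey intervals cover 0 except those of Hspa1b, Hspa4, Dnajb1 and Fkbp4.

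Dnaja4 had the largest difference of the group. It encodes a J-domain partner of HSP70 and lies at chr9:54698873-54716315 (plus strand, GRCm38). In HepWT it stood at 5.05 and 3.48 CPM at ZT2, 3.005 and 5.26 at ZT6, 3.48 and 4.23 at ZT10, 5.07 and 6.35 at ZT14, 6.05 and 6.88 at ZT18, 4.66 and 3.55 at ZT22. Its HepKO levels were 12.9 and 16.3 CPM at ZT2, 13.7 and 13.4 at ZT6, 13.2 and 11.3 at ZT10, 19.2 and 16.97 at ZT14, 16.2 and 15.95 at ZT18, 12.1 and 13.4 at ZT22. The lowest HepKO library, at 11.3 CPM, was above the highest HepWT library, at 6.88 CPM. It was the only member whose libraries did not overlap, a pattern found in 1.43% of all genes. The means were 4.76 ± 1.25 and 14.6 ± 2.34 CPM (SD over 12 libraries, the time of day included), a log2 difference of 1.63 ± 0.092 (SE), or 3.09-fold (adjusted p = 9.43e-10). It passed at every single time, with log2 differences from 1.31 at ZT18 to 1.78 at ZT2, as listed with the other single times below. Exons of Wdr61 overlap Dnaja4 on the opposite strand, and the sources used here do not give the strand setting of the count. Wdr61 stood at 42.6 CPM in HepWT and 42.8 CPM in HepKO (log2 difference of 0.01, adjusted p = 0.862). The daily wave of Dnaja4 itself was not called (0.32 ± 0.11 in HepWT, adjusted p = 0.0589, and 0.16 ± 0.10 in HepKO), but the HepWT wave passed without HepWT ZT2 replicate 1 (adjusted p = 0.03) and with DESeq2 (0.0328).

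Of the inducible HSP70 pair, with library values given above, Hspa1a passed and Hspa1b did not. Hspa1a was 2.07-fold higher in HepKO (log2 1.05 ± 0.19, adjusted p = 0.000607), with a higher mean at 5 of the 6 times. At single times it passed at ZT6 (log2 1.80 ± 0.50, adjusted p = 0.0475). At ZT14, its peak, both HepKO libraries lay above both of HepWT, with an adjusted p of 0.0662. Hspa1b had a log2 difference of 0.48 ± 0.18 (95% interval 0.11 to 0.85) that missed the threshold (adjusted p = 0.0549), with a higher HepKO mean at all 6 times, and it passed in 6 of the 24 fits without 1 library. With time fitted as a 24 h wave, Hspa1a had a log2 difference of 0.97 and an adjusted p of 0.123.

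Dnajb2 was 1.195-fold higher in HepKO. It stood in HepWT at 37.9 and 26.3 CPM at ZT2, 28.0 and 22.4 at ZT6, 22.8 and 21.7 at ZT10, 31.4 and 29.4 at ZT14, 43.5 and 38.9 at ZT18, 35.8 and 24.6 at ZT22. In HepKO it stood at 30.2 and 37.2 CPM at ZT2, 29.6 and 26.1 at ZT6, 28.2 and 29.1 at ZT10, 41.8 and 37.8 at ZT14, 44.3 and 46.9 at ZT18, 41.0 and 40.0 at ZT22. The genotypes overlapped over the day, and the HepKO mean was the higher one at all 6 times (log2 0.26 ± 0.07, adjusted p = 0.0111). Its daily wave was called in both genotypes, with amplitudes of 0.34 ± 0.077 and 0.37 ± 0.077. Replicate 1 of HepWT had a mean of 33.2 CPM and replicate 2 of 27.2 CPM, and with replicate 1 alone as the HepWT group the log2 difference was 0.13 (adjusted p = 0.131). Hsp90ab1 had a log2 difference of 0.16 ± 0.055 (adjusted p = 0.0438), with a higher HepKO mean at 4 of the 6 times, and its call was lost in 18 of the 24 fits without 1 library.

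At single times the genotypes were called to differ in 9 pairs of gene and time, 6 of them those of Dnaja4. At ZT6 the calls were Dnaja4 and Hspa1a, higher in HepKO as were 2.55% of all genes, and Serpinh1, lower as were 2.41% (in either direction 4.96%). At ZT14 they were Dnaja4, higher as were 4.6%, and Dnajb6, lower as were 3.04% (in either direction 7.64%). At the other 4 times Dnaja4 was the only member called, 1 of 36. The shares of all genes called there were 1.86% at ZT2 (0.944% higher, 0.915% lower) and 7.71% at ZT10 (3.73% higher, 3.98% lower). They were 3.79% at ZT18 (2.08% higher, 1.7% lower) and 1.35% at ZT22 (0.839% higher, 0.509% lower).

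HepWT levels were lower in replicate 2 than in replicate 1 for every member except Hsf2, Dnaja4 and Serpinh1, averaged over the times. With HepWT replicate 1 alone, 5 members were called, against 20.5% of all genes, with 2 higher in HepKO (10.8% of all) and 3 lower (9.69%). With replicate 2 alone, 15 were called, against 23.5%, with 13 higher (12.1%) and 2 lower (11.4%). Hspa8 and Hsph1 are examples: with replicate 2 alone their log2 differences were 0.41 (adjusted p = 0.0035) and 0.53 (adjusted p = 0.0143), while with all libraries they were 0.21 ± 0.11 (adjusted p = 0.172) and 0.28 ± 0.17 (adjusted p = 0.246).

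Among the genes that were lower in HepKO, Hsf2 encodes the second heat shock factor, which acts in development and pairs with HSF1. Hsf2 stood in HepWT at 38.5 and 35.9 CPM at ZT2, 39.2 and 39.8 at ZT6, 35.4 and 37.0 at ZT10, 26.2 and 22.8 at ZT14, 36.4 and 41.2 at ZT18, 35.1 and 37.7 at ZT22. The HepKO libraries had 28.8 and 36.7 CPM at ZT2, 30.6 and 31.1 at ZT6, 30.4 and 29.5 at ZT10, 19.1 and 29.6 at ZT14, 33.8 and 32.0 at ZT18, 35.8 and 31.6 at ZT22. The 2 libraries of ZT14 were the lowest in HepWT and 1 of ZT14 was the lowest in HepKO, and the HepKO mean was lower at all 6 times (log2 -0.20 ± 0.062, 1.14-fold, adjusted p = 0.0265). The call was lost in 8 of the 24 fits without 1 library, with adjusted p of up to 0.0702. Hsf1 had a log2 difference of -0.12 ± 0.066 (95% interval -0.26 to 0.019, adjusted p = 0.205). Averaged over the day, Dnajb6 was 1.14-fold lower (log2 -0.19 ± 0.037, adjusted p = 0.000847), with the ZT14 peak described above.

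Serpinh1 (HSP47) folds collagen and is expressed by stellate cells and fibroblasts. It stood in HepWT at 18.2 and 23.6 CPM at ZT2, 15.6 and 20.6 at ZT6, 9.57 and 10.7 at ZT10, 10.1 and 15.7 at ZT14, 13.53 and 23.1 at ZT18, 18.1 and 17.7 at ZT22. HepKO values were 12.8 and 18.6 CPM at ZT2, 8.73 and 10.1 at ZT6, 8.75 and 7.97 at ZT10, 14.3 and 18.6 at ZT14, 15.1 and 13.4 at ZT18, 16.1 and 13.4 at ZT22. The libraries overlapped, with the widest separation at ZT6 (log2 -0.95 ± 0.26, adjusted p = 0.0431). Averaged over the day the log2 difference was -0.32 ± 0.10 (adjusted p = 0.0289), and the call was lost in 11 of the 24 fits without 1 library. Its HepWT peak at ZT23.8 and its HepKO peak at ZT20.1 differed by -3.70 h (HepKO minus HepWT), but the HepKO rhythm and the rhythm difference did not pass (adjusted p = 0.111 and 0.51). HepWT replicate 2 was the higher one, with a mean of 18.6 CPM against 14.2, and with replicate 1 alone as the HepWT group the log2 difference was -0.11 (adjusted p = 0.493). The summed level of 10 stellate cell and fibroblast markers was 450.1 to 561 CPM in HepWT replicate 1, 552 to 662 in replicate 2 and 444 to 575 in HepKO, with 1 marker called higher and 3 lower in HepKO. Their part in the result was not tested.

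Hspb1 (HSP25), a small heat shock protein that holds unfolded clients and binds actin, rested on 1 replicate. In HepWT replicate 1 it had a mean of 13.0 CPM, in HepWT replicate 2 of 6.32 CPM and in HepKO of 6.15 CPM. In each of the 6 times the HepWT replicate 1 library was above replicate 2. The log2 difference was -0.62 ± 0.22 (adjusted p = 0.0463), and it was 0.048 (adjusted p = 0.817) with replicate 2 alone as the HepWT group. The call was lost with limma-voom (adjusted p = 0.159), without HepWT ZT2 replicate 1 (log2 -0.48, adjusted p = 0.118) and in 17 of the 24 fits without 1 library. Its amplitudes of 0.62 ± 0.21 and 0.58 ± 0.23 were not called.

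**Figure D5:**
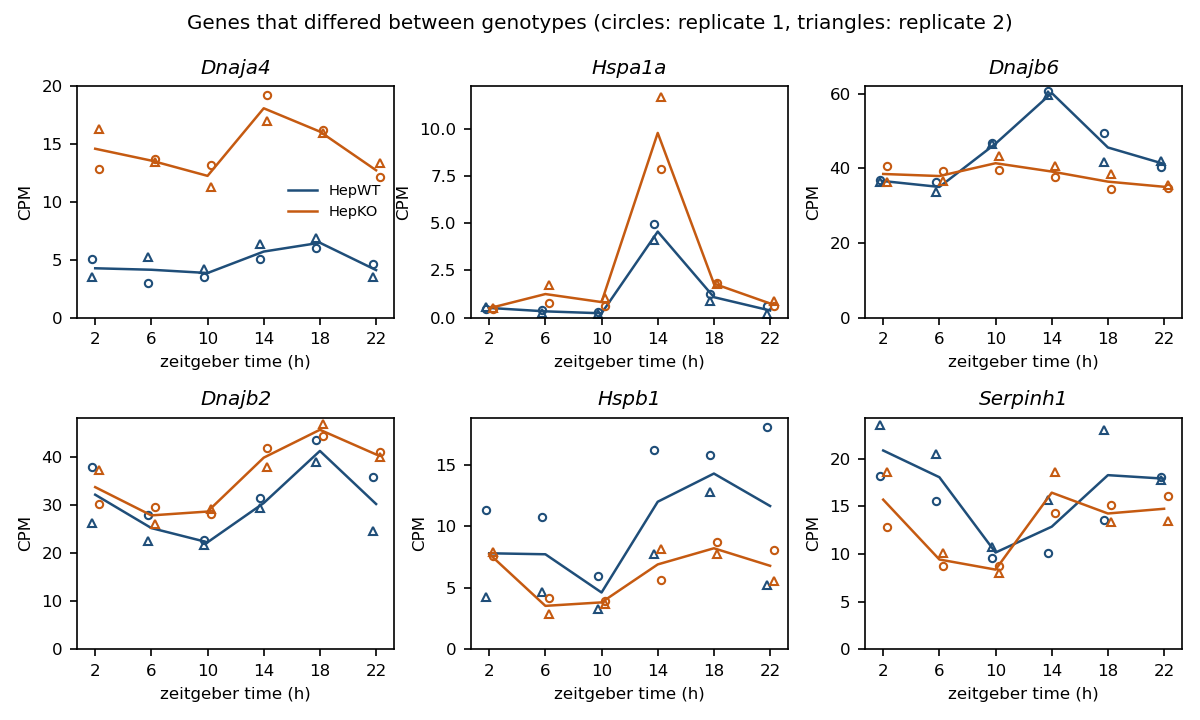
Level in CPM (vertical axis, from 0) by zeitgeber time in hours for 6 genes called in a genotype difference; circles are replicate 1, triangles replicate 2, lines the means of 2, blue HepWT and orange HepKO. The Dnaja4 courses do not overlap, Hspa1a is highest at ZT14 with HepKO above HepWT, the ZT14 peak of Dnajb6 appears in HepWT and not in HepKO, and the HepWT circles and triangles of Hspb1 lie apart.

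For the 28 members without a genotype call, 95% intervals of the log2 difference were taken from the fit of the 12 groups. That fit treats all libraries as independent, which the labels do not settle, so the intervals may be too narrow. The narrowest were those of St13 (-0.0091 to 0.14), Dnaja2 (-0.15 to 0.0057) and Ptges3 (-0.065 to 0.094). The widest were those of Hspa2 (-0.39 to 0.43), Hspa1b and Hsph1 (-0.072 to 0.63). Among HSP90 co-chaperones, log2 differences were -0.034 for Ahsa1, 0.025 for Chordc1, 0.066 for Cdc37, 0.12 for Stip1 and 0.15 for Fkbp4 (adjusted p = 0.0662). Among J-domain genes they were -0.07 for Dnaja2, 0.11 for Dnajb4 and 0.18 for Dnajb1. Among exchange factors they were -0.067 for Bag1, -0.065 for Hspa4l, 0.017 for Bag3, 0.10 for Hspa4 and 0.28 for Hsph1.

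Other chaperone genes, listed by textbook role, are given for context. Of all genes tested, 13.2% were higher and 13.3% lower in HepKO, and 30.3% were rhythmic in HepWT and 14.3% in HepKO. Of 14 genes of the chaperonin TRiC and prefoldin, which fold actin and tubulin, 4 were higher and 1 lower in HepKO, and 8 were rhythmic in HepWT and 7 in HepKO. The TRiC subunit Tcp1 had a rhythm that differed between genotypes, with an amplitude of 0.37 and a peak at ZT16.4 in HepWT against 0.23 and ZT19.9 in HepKO (adjusted p = 0.00225). Of 25 other partners of HSP70 and HSP90, 5 were higher and 2 lower, and 9 and 7 were rhythmic. Fkbp5, a glucocorticoid-induced immunophilin and relative of Fkbp4, fell from 56.2 to 20.1 CPM (log2 -1.28, adjusted p = 9.04e-07), a gene singled out after its values were seen. Of 11 other mitochondrial chaperones and proteases, 3 were higher and 1 lower, and 5 and 1 were rhythmic. Of 14 chaperones of the endoplasmic reticulum, 0 were higher and 1 (Dnajc3) was lower, and 10 and 9 were rhythmic, with all 10 HepWT peaks between ZT12 and ZT24. Median log2 differences of these 4 lists lay between 0.017 and 0.043. Of 2 RNA-binding protein genes induced by cold, both rhythmic in both genotypes, Cirbp peaked at ZT6.14 in HepWT and ZT6.85 in HepKO. The other, Rbm3, peaked at ZT13.6 in HepWT and ZT12.5 in HepKO. Of 8 immediate early genes, which handling can induce, 1 was higher and 1 lower, and 4 and 3 were rhythmic.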

How the data were processed

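Raw read counts per gene were deposited by the authors in 1 table of 35304 genes and 24 libraries. Per the submitters' processing notes, reads were aligned with STAR 2.4.0i to mm10; of the counting, the tool, strand setting and annotation were not stated in any source at hand. The labels' protocols describe a stranded kit with removal of ribosomal RNA, an input of 250 ng, 12 PCR cycles and paired reads of 100 bases. Samples were grouped by the genotype and time in the labels. Counts were scaled with TMM and tested with edgeR 4.0.16 (R 4.3.3) by its quasi-likelihood test, on the 17275 genes that passed filterByExpr (minimum count of 10, minimum total of 15). P-values were adjusted by the Benjamini-Hochberg method over all tested genes, with a threshold of 0.05. Genotype differences came from a model of the 12 groups (12 residual degrees of freedom), and daily waves from a 24 h cosine and sine per genotype (18) or 24 h and 12 h waves (14). CPM are TMM-scaled and computed from the counts. An SD over 12 libraries includes the time of day. Alternatives used DESeq2 1.42.0 and limma 3.58.1. Scripts were tested on simulated data. Exon lengths and overlaps are from GENCODE on GRCm38, promoter windows from RefSeq on GRCm38.p6. The members and lists were chosen with earlier results of these data known. Values in both libraries at each time are given for members among the 5 smallest p-values of the genotype difference, the HepWT rhythm or the rhythm difference; other values printed in full were chosen after they were seen.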

Additional observations from a re-analysis of the deposited data

Results flagged for a closer look

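Effects of the time of day differed between genotypes, by a test of the difference itself, for 1 member and 2 genes of the context lists. Dnajb6 was picked out by the rhythm difference (adjusted p = 0.0176) and by the interaction of genotype and time (adjusted p = 0.0313). The TRiC subunit Tcp1 had a rhythm difference with an adjusted p of 0.00225. Clpx, the unfoldase of a mitochondrial protease, had an amplitude of 1.36 with a peak at ZT1.01 in HepWT and of 0.14 in HepKO (adjusted p of the rhythm difference = 7.79e-07), and its mean level was 206 CPM in HepWT and 400.2 CPM in HepKO. Groups of 2 libraries are too small for a test of single outlying libraries.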

How the results depend on the processing

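Across the alternatives, 4896 results on single members were compared with the values above. Of these, 4633 kept their side of the threshold, 190 lost a call, 72 gained one and 1 reversed. A change of direction was counted only for results called in the main or the alternative fit. Differences that changed sign without a call in either are among the 4633. The cause was not tested unless stated. The reversal was Hspb1, with a log2 difference of 0.048 when HepWT replicate 2 stood alone. Leaving out the filter on low counts changes the genes tested and the genes from which the spread is estimated. Without it, 13 members differed between genotypes, against 14.2% of all genes (9 higher, against 6.5%). In that fit 23 pairs of member and time were called in place of 9. There, 8 passed the interaction (5.06% of all), 5 the rhythm difference (4.18%), and 17 and 14 had a 12 h part in HepWT (2.56%) and HepKO (1.92%). Adjusted p moved far at similar fitted values in that fit. The genotype difference of Hspa1b went from 0.48 (adjusted p = 0.0549) to 0.47 (1.14e-11). The HepWT wave of St13 kept an amplitude of 0.11 and lost its call (adjusted p from 0.0342 to 0.394). The reason was not tested. DESeq2 gave 9 and 4 for the 12 h part (2.18% and 1.01% of all). Without the 5 HepKO libraries of lower depth, which leaves fewer samples, 4 members differed, against 16.1% of all (2 higher, 2 lower), 5 pairs were called, and 0 passed the interaction (0.241% of all), the HepKO rhythm (0.968%), the rhythm difference (0.369%) or the 12 h part in HepWT (0.0615%). HepWT replicate 1 alone gave 5 genotype calls, 2 of them higher, and 0 interactions. HepWT replicate 2 alone gave 15 (13 higher, 2 lower), 18 pairs and 0 rhythm differences. Time as a 24 h wave gave 4 (2 higher, 2 lower), and the share of all genes was not computed for that setting.

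Leaving out 1 library at a time gave 4 to 16 genotype calls (3 to 13 higher, 1 to 4 lower), 7 to 14 pairs, 0 to 3 interactions, 24 to 29 rhythms in HepWT and 15 to 20 in HepKO, 0 to 1 rhythm differences, and 0 to 9 and 0 to 4 12 h parts in HepWT and HepKO. In a group that is left with 1 library, that library is assumed to vary like the other groups.

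With the replicate number as a block, 10 members differed between genotypes, against 26.6% of all genes (6 higher and 4 lower, against 13.3% each). Hspa1b (adjusted p = 0.0481) and Fkbp4 (0.0493) were gained, and 8 pairs and 1 interaction (1.15% of all) were called. In HepWT and HepKO 28 and 18 members were rhythmic, against 30.4% and 13.9% of all. The rhythm difference passed for 1 (1.5% of all), and 2 and 0 had a 12 h part (0.255% and 0% of all). The numbers were not taken to pair the libraries, since not every pair correlated above 0.1 and the labels tie a number to no shared source: deviations of same-numbered libraries correlated at -0.057 to 0.41 (median 0.20) between HepWT times, at -0.21 to 0.14 (median -0.016) between HepKO times and at -0.17 to 0.26 (median -0.023) across genotypes. Between HepWT times most same-numbered libraries thus deviated together, with levels lower in HepWT replicate 2 for most members. Depth limits Hspa1a, Hspa2 and Cryab most.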
